A study of Mus musculus with 9 samples.

Results

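Calcium release receptors and calcium pumps were examined as a set of 10 genes, chosen by name and matched through their Ensembl identifiers to 10 of the 37620 genes counted in every sample. The set holds the ryanodine receptor genes Ryr1, Ryr2 and Ryr3, the IP3 receptor genes Itpr1, Itpr2 and Itpr3, the SERCA pump gene Atp2a2, and the PMCA pump genes Atp2b1, Atp2b2 and Atp2b3. RNA bound to ribosomes of hippocampal parvalbumin interneurons (PV INs) was sequenced after lentivirus carrying an shRNA against Ablim3 (shRNA, n = 4 samples) or a non-target shRNA (shNT, n = 5 samples) was injected into the dentate gyrus. All samples came from PV-Cre; Rpl22HA/HA mice aged 2 months, males and females together, in which Cre driven by the Pvalb locus puts an HA tag on the ribosomal protein Rpl22. CA2/CA3 tissue was taken 2 weeks after injection, each sample was a pool of 6 mice, and tagged ribosomes were pulled down with anti-HA beads.

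Ryanodine receptors and IP3 receptors are the large channels through which calcium leaves the endoplasmic reticulum. Ryanodine receptors open when cytosolic calcium rises, and IP3 receptors open when IP3, made by phospholipase C, is bound together with calcium. SERCA pumps return calcium to the endoplasmic reticulum and PMCA pumps push it out across the plasma membrane, and fast-spiking PV INs also hold the calcium buffer parvalbumin in their cytosol.

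The members of each family are close relatives, and the reads were 50 bases long, so stretches that nearly coincide are shown. They bear on how far the counts of relatives can be told apart. Each line gives a 50-base coding stretch that lies within a single exon of every gene of the family. It was chosen for the fewest summed mismatches to Ryr2, Itpr1 or Atp2b2, the gene each family was compared with. Sequences come from annotated transcripts (GENCODE vM1, mm9) and run 5′ to 3′ on the strand of the gene. Capitals mark positions where the 3 genes are not all the same.
Ryr1: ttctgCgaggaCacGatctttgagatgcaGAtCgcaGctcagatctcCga
Ryr2: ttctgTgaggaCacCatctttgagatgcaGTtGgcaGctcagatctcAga
Ryr3: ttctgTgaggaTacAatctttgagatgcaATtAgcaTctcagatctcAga
Itpr1: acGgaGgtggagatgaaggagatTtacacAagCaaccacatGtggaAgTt
Itpr2: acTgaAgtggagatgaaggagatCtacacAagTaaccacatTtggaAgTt
Itpr3: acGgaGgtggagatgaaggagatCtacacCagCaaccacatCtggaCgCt
Atp2b1: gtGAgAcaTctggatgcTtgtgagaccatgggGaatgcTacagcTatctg
Atp2b2: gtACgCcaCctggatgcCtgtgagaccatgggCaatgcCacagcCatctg
Atp2b3: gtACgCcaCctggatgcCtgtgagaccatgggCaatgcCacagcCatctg

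These stretches lie in coding exons at chr7:29805155-29805204 (Ryr1, minus strand), chr13:11687586-11687635 (Ryr2, minus), chr2:112493283-112493332 (Ryr3, minus), chr6:108355439-108355488 (Itpr1, plus), chr6:146271664-146271713 (Itpr2, minus), chr17:27244600-27244649 (Itpr3, plus), chr10:98462397-98462446 (Atp2b1, plus), chr6:113739916-113739965 (Atp2b2, minus) and chrX:70782248-70782297 (Atp2b3, plus). The 3 sequences of each family differed at 8 positions, and Atp2b2 and Atp2b3 were identical over the whole stretch. Pair by pair and without the limit to a single exon, the closest 50-base coding stretches differed less in some cases. Ryr1 and Ryr2 differed at 1 position, Ryr1 and Ryr3 at 3, and Ryr2 and Ryr3 at 5. Itpr1 and Itpr2 differed at 4, and Itpr3 differed from each of them at 3. Atp2b1 differed at 4 from Atp2b2 and at 5 from Atp2b3. Over one annotated transcript per gene, Atp2b2 and Atp2b3 shared 7 stretches of 50 bases, 0.154% and 0.158% of those in each, and no other pair of members shared one. Stretches shared with a gene outside the set made up 5.19% of those in Ryr3, whose exons overlap the antisense gene Aven over 5.17% of their length. Exons of Ryr1 overlapped the antisense gene Gm16799 over 1.95% of their length and those of Itpr3 overlapped 1700062I23Rik over 2.59%. The counting did not use strand, so reads from these overlaps could not be assigned to either gene by strand. Of the reads counted in genes, set aside as ambiguous or falling outside exons, 1.36% to 1.78% were ambiguous and were counted for no gene. How many of the ambiguous reads fell in these overlaps is not known.

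Libraries held between 18281719 and 34578837 reads counted in genes, and 15069 genes reached 1 CPM (the count scaled to library size) in at least 1 sample and were tested. Ablim3, the gene the shRNA was aimed at, was at 16.9 ± 5.16 CPM (SD, n = 5) in shNT and 18.5 ± 3.42 CPM (SD, n = 4) in shRNA, which gave 0.13 as log2 fold change and 0.701 as edgeR adjusted p, and since the virus went into the dentate gyrus while these libraries come from CA2/CA3, this level is no check of the knockdown where it was delivered. Pvalb, which marks the tagged cells, was detected in all samples, at 998 ± 287 CPM in shNT and 526 ± 163 CPM in shRNA, a log2 fold change of -0.92 with an edgeR adjusted p of 0.0678. Of the reads counted in genes, ambiguous or outside exons, those outside exons made up 9.76% to 12.5% in 6 libraries. Their share was 18.6% in shNT replicate 2, 19.8% in shRNA replicate 1 and 27.2% in shRNA replicate 4. Astrocyte markers (10 genes) summed to 5624 CPM in shRNA replicate 4 and to between 1074 and 1671 CPM in the other 8 libraries. These 3 libraries stand apart in the results that follow. The log2 fold changes of the set and the counts of called genes are also given without them. Levels, shares, correlations, marker sums, exon length classes and pathway medians rest on all samples.

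Per kilobase of exon, the pump genes Atp2a2, Atp2b2 and Atp2b1 were far above all 6 channel genes, while the pump gene Atp2b3 was near Itpr1. In RPKM, the CPM divided by exon length in kilobases, Atp2a2 stood first at 129 ± 40.3 (SD, n = 5) in shNT, followed by Atp2b2 at 48.4 ± 15 and Atp2b1 at 38.5 ± 10.1, against a median of 4.62 over all genes tested. Itpr1 at 6.76 ± 2.34 and Atp2b3 at 6.15 ± 1.77 were near the middle of all genes. Ryr2 at 1.95 ± 0.951, Itpr2 at 0.762 ± 0.280, Ryr3 at 0.488 ± 0.363, Ryr1 at 0.344 ± 0.241 and Itpr3 at 0.133 ± 0.061 RPKM completed the order. Among all genes tested, these levels stood at percentile 96.8 for Atp2a2, 57.5 for Itpr1, 34.1 for Ryr2 and 3.80 for Itpr3.

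Neighbours in this order were separated in all 5 shNT samples except in 2 places. Atp2b2 exceeded Atp2b1 in 4 of 5 shNT samples, and Itpr1 exceeded Atp2b3 in 3 of 5. In shRNA the order was the same apart from Atp2b1, at 61.8 ± 19.4 RPKM (SD, n = 4), which had a higher mean than Atp2b2 at 51.5 ± 15.8 RPKM but exceeded it in only 2 of 4 samples. This change of order depends on the exon length used, since per kilobase of the longest transcript Atp2b2 was at 75.8 and Atp2b1 at 61.9 RPKM in shRNA. Itpr2 exceeded Ryr3 in 3 of 4 shRNA samples.

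**Figure D1:**
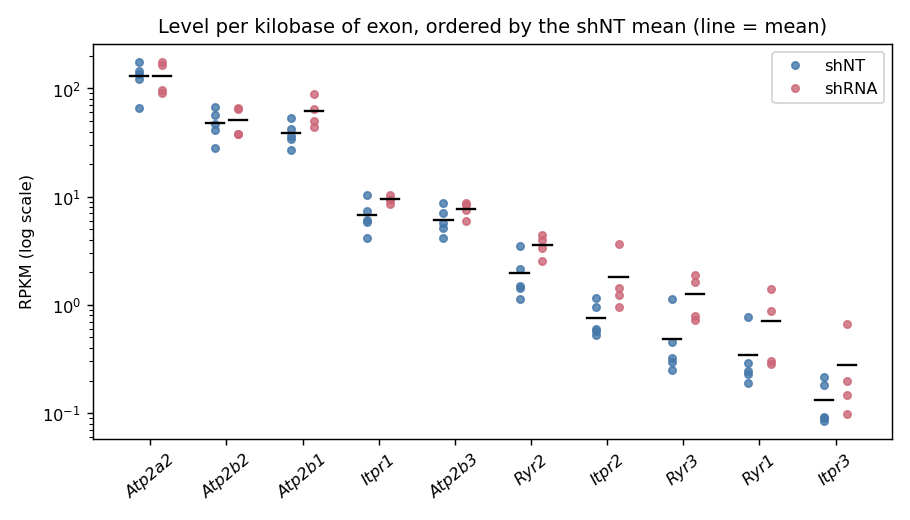
Level of each gene per kilobase of exon (RPKM, log axis) in each shNT sample (blue) and shRNA sample (red), ordered by the shNT mean, with a line at each group mean. Atp2a2 is at the top with 129 RPKM in shNT and Itpr3 at the bottom with 0.133 RPKM.

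No gene of the set was called changed by the edgeR quasi-likelihood test at an adjusted p below 0.05 and a change of at least 1.5-fold. Over all genes tested, 1.74% were called higher in shRNA and 0.0133% lower by the same rule. All 10 log2 fold changes (shRNA over shNT) were positive, where 57.9% of all genes tested were, and their median was 0.78 against 0.11 over all genes. For 4 of 10 genes, Ryr2, Ryr3, Itpr2 and Atp2b1, the unadjusted p was below 0.05, a mark that 20.7% of all genes passed in the higher direction. The same 4 genes had adjusted p-values below 0.1, as 14.7% of all genes tested did in the higher direction. Toward lower levels, 0 of 10 passed the unadjusted mark that 13.4% of all genes passed. In none of the 10 did the values of the 2 groups separate fully, while 15.6% of all genes tested had groups that did not overlap, 8.97% with shRNA above shNT and 6.68% with shRNA below.

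Other tests called more genes of every kind. The edgeR likelihood ratio test called 4 of the 10 higher, Ryr2, Ryr3, Itpr2 and Atp2b1, where it called 11.2% of all genes higher and 3.6% lower, and the edgeR exact test called the same 4, where it called 11.0% higher and 3.54% lower. DESeq2 called 3 of these, without Atp2b1, against 10.1% of all genes higher and 5.6% lower. With limma voom, run with quality weights that let deviant samples count less, 5 were called, the 4 and Itpr1, against 15.3% higher and 4.1% lower. None of the 10 was called lower by any of these tests.

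**Figure D2:**
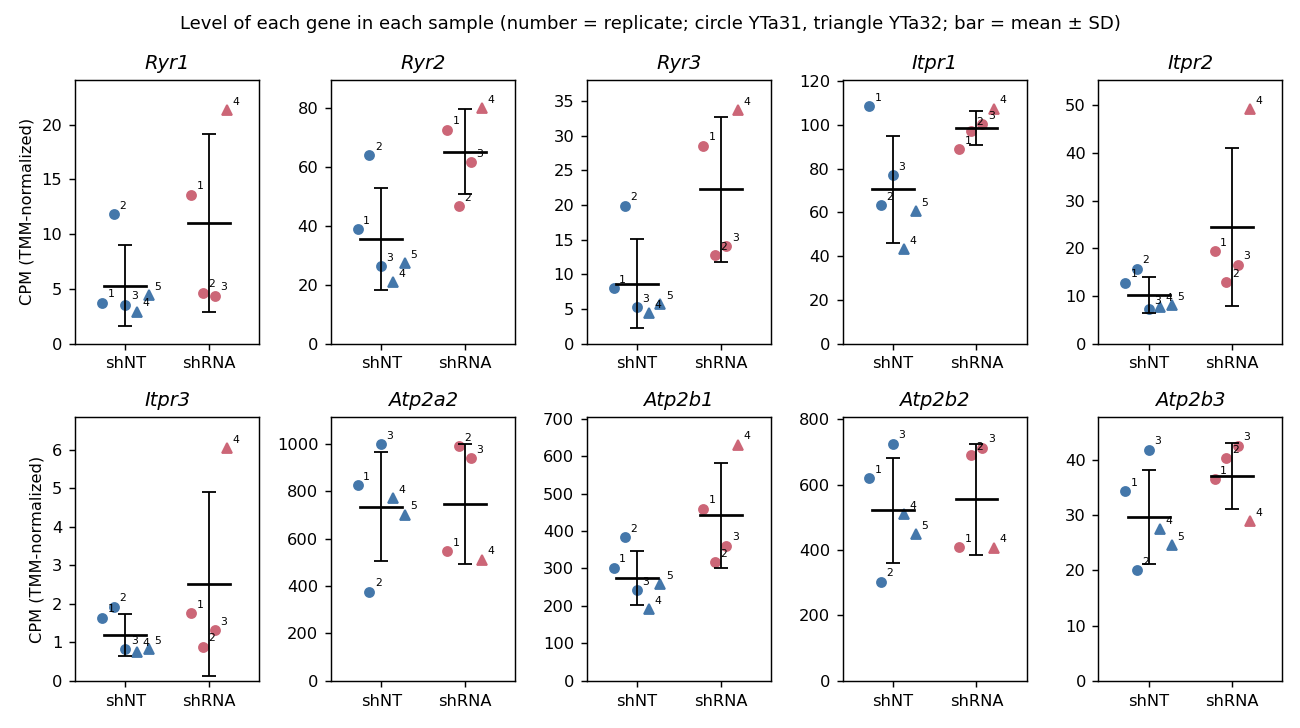
Level of the 10 genes in each sample (CPM after TMM normalization, linear axes from 0), with the replicate number beside each point, circles for samples named YTa31, triangles for those named YTa32, and bars for the mean ± SD. Every panel overlaps between groups, and shRNA replicate 4 is the highest shRNA sample in 7 of 10 panels.

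Among the ryanodine receptors, all 3 genes had higher mean levels in shRNA, with shNT replicate 2 inside the shRNA range each time. Ryr2 (chr13:11645370-12199212, minus strand), the receptor best known from heart and also the main form in much of the brain, was at 38.9, 64.1, 26.3, 20.8 and 27.3 CPM in shNT replicates 1 to 5 and at 72.7, 46.7, 61.6 and 80.0 CPM in shRNA replicates 1 to 4. Of the shNT samples, 4 lay below all shRNA samples and only replicate 2 reached into their range. With mean levels of 35.5 ± 17.3 (SD, n = 5) in shNT and 65.3 ± 14.5 CPM (SD, n = 4) in shRNA, it had a log2 fold change of 0.88 ± 0.30 (SE, 95% interval 0.22 to 1.54) with an edgeR adjusted p of 0.0811 and an exact two-sided permutation p of 0.0397.

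Ryr3 (chr2:112471512-113057253, minus strand), a form known from hippocampus and other brain regions, had the largest log2 fold change of the set. Its levels were 8.0, 19.9, 5.21, 4.39 and 5.68 CPM in shNT and 28.5, 12.7, 14.03 and 33.7 CPM in shRNA. Again 4 of 5 shNT samples lay below every shRNA sample and shNT replicate 2 was the exception. Mean levels of 8.63 ± 6.43 (SD, n = 5) in shNT and 22.2 ± 10.5 CPM (SD, n = 4) in shRNA gave a log2 fold change of 1.37 ± 0.46 (SE, 95% interval 0.37 to 2.37), with an edgeR adjusted p of 0.0779 and an exact permutation p of 0.0397.

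Ryr1 (chr7:29788359-29910170, minus strand), the receptor of skeletal muscle, was at 3.73, 11.8, 3.53, 2.93 and 4.42 CPM in shNT and at 13.6, 4.66, 4.38 and 21.3 CPM in shRNA. Its high values, between 11.8 and 21.3 CPM, were those of the 3 libraries with the most reads outside exons, and the other 6 lay between 2.93 and 4.66 CPM. The log2 fold change of 1.06 ± 0.53 (SE, 95% interval -0.11 to 2.23) had an edgeR adjusted p of 0.182 and an exact permutation p of 0.175. Striated muscle markers (6 genes, 3 of 4 tested with positive log2 fold changes) summed to between 3.93 and 18.2 CPM in shNT and between 18.8 and 25.6 CPM in shRNA, and the defining genes Myh1 and Myh2 were below 1 CPM in all samples.

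Ryr2 made up 71.5 ± 3.93% (SD, n = 5) of the ryanodine receptor RPKM in shNT and 66.5 ± 8.64% (SD, n = 4) in shRNA. Ryr3 made up 16.5 ± 2.39% and 21.8 ± 3.53%, and Ryr1 12.03 ± 2.21% and 11.6 ± 5.26%. The ranges of each share overlapped between the groups, from 14.9% to 20.7% against 17.8% to 24.8% for Ryr3.

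Of the IP3 receptors, Itpr1 (chr6:108163112-108501103, plus strand), the main neuronal form, carried most of the family in both groups. Its levels were 108.5, 63.2, 77.0, 43.3 and 60.6 CPM in shNT and 89.0, 97.4, 100.4 and 107.5 CPM in shRNA. The shRNA samples were close together, while shNT replicate 1 was the highest of all 9 and the other 4 shNT samples lay below every shRNA sample. With mean levels of 70.5 ± 24.4 (SD, n = 5) in shNT and 98.6 ± 7.68 CPM (SD, n = 4) in shRNA, it had a log2 fold change of 0.48 ± 0.22 (SE, 95% interval -0.01 to 0.97) with an edgeR adjusted p of 0.151 and an exact permutation p of 0.0714. Without shNT replicate 1, Itpr1 was called higher, with a log2 fold change of 0.69 and an edgeR adjusted p of 0.0455, in a fit that called 1007 of 15065 genes higher and 410 lower.

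Itpr2 (chr6:146056821-146450745, minus strand), the form known from astrocytes as well as heart and liver, was at 12.8, 15.7, 7.17, 7.72 and 8.03 CPM in shNT and at 19.4, 12.8, 16.6 and 49.1 CPM in shRNA. The highest value belonged to shRNA replicate 4, in which the 10 astrocyte markers summed to 5624 CPM, and 4 of 5 shNT samples lay below every shRNA sample, replicate 1 by less than the rounding shown. The log2 fold change was 1.25 ± 0.39 (SE, 95% interval 0.40 to 2.10) with an edgeR adjusted p of 0.0697, the lowest of the set, and an exact permutation p of 0.0317. Without shRNA replicate 4 it was 0.63. All 10 astrocyte markers had positive log2 fold changes, with a median of 1.39, and their part in the level of Itpr2 was not tested. In pulldowns from pooled tissue such as these, a change in the number of cells of a type and a change in RNA per cell cannot be told apart.

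Itpr3 (chr17:27194249-27259168, plus strand), a form known mainly from epithelia, rested on 15 to 134 reads per library. It was at 1.64, 1.93, 0.823, 0.757 and 0.816 CPM in shNT and at 1.76, 0.888, 1.32 and 6.04 CPM in shRNA, and only shRNA replicate 4 lay above the shNT range. The log2 fold change of 1.07 ± 0.55 (SE, 95% interval -0.15 to 2.28), with an edgeR adjusted p of 0.193 and an exact permutation p of 0.286, was 0.13 without that replicate.

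Itpr1 made up 87.9 ± 4.18% (SD, n = 5) of the IP3 receptor RPKM in shNT and 83.0 ± 8.66% (SD, n = 4) in shRNA. Itpr2 made up 10.3 ± 3.54% and 14.8 ± 7.01%, reaching 24.9% in shRNA replicate 4, and Itpr3 1.75 ± 0.672% and 2.2 ± 1.65%.

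The pumps divided into a pair with nearly equal group means, Atp2a2 and Atp2b2, and a pair with higher means in shRNA, Atp2b1 and Atp2b3. Atp2a2 (chr5:122903531-122952183, minus strand), which encodes SERCA2, was at 825, 375, 998, 769.7 and 701 CPM in shNT and at 547, 988, 938 and 511 CPM in shRNA. Its 3 lowest values were those of the 3 libraries with the most reads outside exons. Mean levels of 734 ± 229 (SD, n = 5) in shNT and 746 ± 252 CPM (SD, n = 4) in shRNA gave a log2 fold change of 0.02 ± 0.30 (SE), with an edgeR adjusted p of 0.962 and an exact permutation p of 0.960, and the 95% interval of -0.63 to 0.67 allows a change in either direction.

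Atp2b2 (chr6:113695663-113992607, minus strand), which encodes the fast PMCA2 pump, was at 619, 303, 726, 510.4 and 448 CPM in shNT and at 409, 690.5, 713 and 408 CPM in shRNA. The same 3 libraries were again the lowest. Its log2 fold change was 0.09 ± 0.28 (SE, 95% interval -0.51 to 0.69), with an edgeR adjusted p of 0.832 and an exact permutation p of 0.746.

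Atp2b1 (chr10:98377786-98488777, plus strand), which encodes the widely used PMCA1 pump, was at 303, 383, 242, 192 and 258 CPM in shNT and at 459, 317, 361 and 629.9 CPM in shRNA. Only shNT replicate 2 reached into the shRNA range. Mean levels of 275 ± 71.9 (SD, n = 5) in shNT and 442 ± 139 CPM (SD, n = 4) in shRNA gave a log2 fold change of 0.68 ± 0.25 (SE, 95% interval 0.14 to 1.22), with an edgeR adjusted p of 0.0896 and an exact permutation p of 0.0476.

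Atp2b3 (chrX:70748425-70816344, plus strand), which encodes the neuronal PMCA3 pump, was at 34.3, 20.1, 41.8, 27.4 and 24.6 CPM in shNT and at 36.5, 40.3, 42.5 and 28.9 CPM in shRNA. The groups overlapped widely, and the log2 fold change of 0.32 ± 0.21 (SE, 95% interval -0.14 to 0.79) had an edgeR adjusted p of 0.289 and an exact permutation p of 0.167. Of the PMCA RPKM, Atp2b1 made up 42.0 ± 12.4% (SD, n = 5) in shNT and 50.9 ± 14.1% (SD, n = 4) in shRNA, Atp2b2 51.5 ± 11.3% and 42.7 ± 13.1%, and Atp2b3 6.53 ± 1.14% and 6.41 ± 1.25%. With the length of the longest transcript the larger share in shRNA was that of Atp2b2, at 51.6% against 42.9% for Atp2b1, and the shares in shNT were 60.4% and 34.2%.

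Across the 9 samples the genes fell into 2 patterns. In Ryr1, Ryr2, Ryr3, Itpr3 and Atp2b1 the 3 highest values were those of shNT replicate 2, shRNA replicate 1 and shRNA replicate 4, the libraries with the most reads outside exons, whereas in Atp2a2 and Atp2b2 the same libraries held the 3 lowest values. The remaining genes, Itpr1, Itpr2 and Atp2b3, followed neither pattern in full. Pearson's r of the log2 levels over the 9 samples was 0.977 for Ryr3 and Ryr2, 0.975 for Atp2b2 and Atp2a2, 0.963 for Atp2b1 and Ryr3, and -0.80 for Atp2a2 and Ryr1. These describe libraries that also share depth and the share of reads outside exons, and carry no p.

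Outside the set, the gene with the most similar profile over the 9 samples was Ubn2 for Ryr1 (r = 0.993), Speg for Ryr2 (r = 0.990), Smc5 for Ryr3 (r = 0.996) and Cblb for Itpr1 (r = 0.979). It was Trrap for Itpr2 (r = 0.991), Btg2 for Itpr3 (r = 0.979), Nsf for Atp2a2 (r = 0.992), Ccdc88c for Atp2b1 (r = 0.995), Btrc for Atp2b2 (r = 0.993) and Chrm1 for Atp2b3 (r = 0.986). Each was picked as the highest of at least 9494 candidates with a mean of 10 CPM or more, so high values of r were bound to be found.

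With those 3 libraries left out, a setting chosen after seeing the data, all 10 log2 fold changes remained positive, between 0.08 and 1.17 with a median of 0.38, and no gene was called. Ryr2, Ryr3 and Itpr2, 3 of 10, were higher at an unadjusted p below 0.05, where 1872 of 13983 genes were. In this comparison of 4 shNT with 2 shRNA samples Ryr2 was at 0.90 ± 0.23 (SE) and Ryr3 at 1.17 ± 0.23, while Ryr1 was at 0.27 ± 0.23 and Itpr3 at 0.08 ± 0.42. With the percentage of reads falling outside exons entered as a covariate over all 9 samples, 8 of 10 were positive, between -0.17 and 0.65 with a median of 0.49. Ryr3, Atp2a2, Atp2b2 and Atp2b3, 4 of 10, were higher at an unadjusted p below 0.05, where 2887 of 15069 genes were. Ryr1 then had a log2 fold change of -0.09 and Itpr3 one of -0.17, whereas Atp2a2 was at 0.52 and Atp2b2 at 0.51.

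Single libraries moved the values in opposite ways. Without shRNA replicate 4 all 10 log2 fold changes were positive with a median of 0.43, and none had an unadjusted p below 0.05. Of all 14515 genes in that fit, 2126 were higher and 1639 lower at that mark, and 142 were called higher. Without shNT replicate 2 the median was 1.02, 8 of 10 were positive, and Ryr2 (log2 fold change 1.20) and Ryr3 (log2 fold change 1.93) were called higher, each with an edgeR adjusted p of 0.0426, in a fit that called 481 of 14969 genes higher. At an unadjusted p below 0.05, 5 of 10 were higher in that fit, where 3330 of 14969 genes were. With both of these libraries left out, a setting chosen after seeing the data, Ryr2 and Ryr3 were called higher as well, among 678 of 14270 genes.

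The samples carry 2 name stems, YTa31 (3 shNT and 3 shRNA) and YTa32 (2 shNT and 1 shRNA), which the sources used here do not explain. Within YTa31, the difference of mean log2 levels (shRNA minus shNT) was positive in 9 of 10 genes, from -0.11 for Itpr3 to 0.87 for Ryr3, with a median of 0.29. Within YTa32, where shRNA replicate 4 is the only shRNA sample, it was positive in 8 of 10, from -0.52 for Atp2a2 to 2.83 for Itpr3, with a median of 1.62. The edgeR fit on the YTa31 samples alone gave log2 fold changes from -0.18 to 0.70 with a median of 0.23, none with an unadjusted p below 0.05. Of all 14475 genes in that fit, 996 were higher and 497 lower at that mark, and 0 were called.

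**Figure D3:**
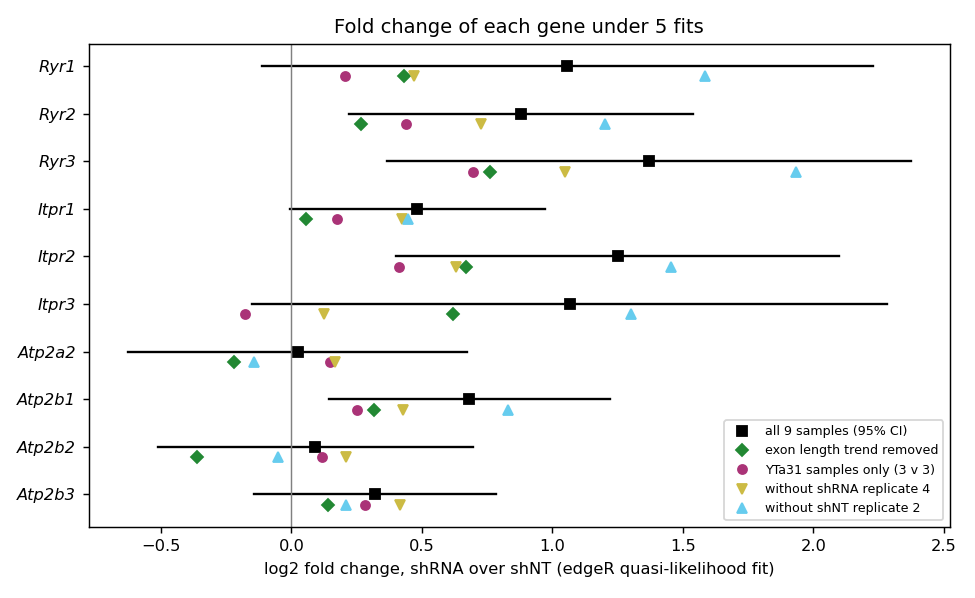
Log2 fold change of each gene, shRNA over shNT, from the edgeR quasi-likelihood fit of all 9 samples (black squares, lines for the 95% interval), and from fits with the exon length trend removed, on YTa31 samples only, without shRNA replicate 4 and without shNT replicate 2. Ryr3 lies above 0 in all 5 fits, from 0.70 to 1.93, whereas Atp2a2, Atp2b2 and Itpr3 change sign between fits.

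The channels are also among the longest transcripts. The exon length of the 10 genes had a median of 10.6 kb, from 4.82 kb in Atp2b3 to 18.2 kb in Ryr2, against 3.62 kb over all genes tested. Over all genes the log2 fold change went with exon length, with a median of -0.47 in the 755 genes under 1 kb, -0.27 between 1 and 2 kb, 0.01 between 2 and 4 kb, 0.26 between 4 and 8 kb and 0.49 in the 1583 genes of 8 kb or more. In this last class 85.5% of genes had a positive value, and of the 4938 genes with exons at least as long as those of Atp2b3, 78.9% did.

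With the trend on exon length removed in each sample, 8 of 10 log2 fold changes stayed positive, between -0.36 and 0.76 with a median of 0.29, against a median of -0.00 over all genes. Ryr3 was then at 0.76 ± 0.37 (SE, 95% interval -0.05 to 1.57), Itpr2 at 0.67 ± 0.31 (SE, 95% interval -0.02 to 1.35), Ryr2 at 0.27 ± 0.21 and Atp2b2 at -0.36 ± 0.28. None of the 10 had an unadjusted p below 0.05 in that fit, and no gene of any kind was called, with 2189 higher and 2118 lower at an unadjusted p below 0.05.

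**Figure D4:**
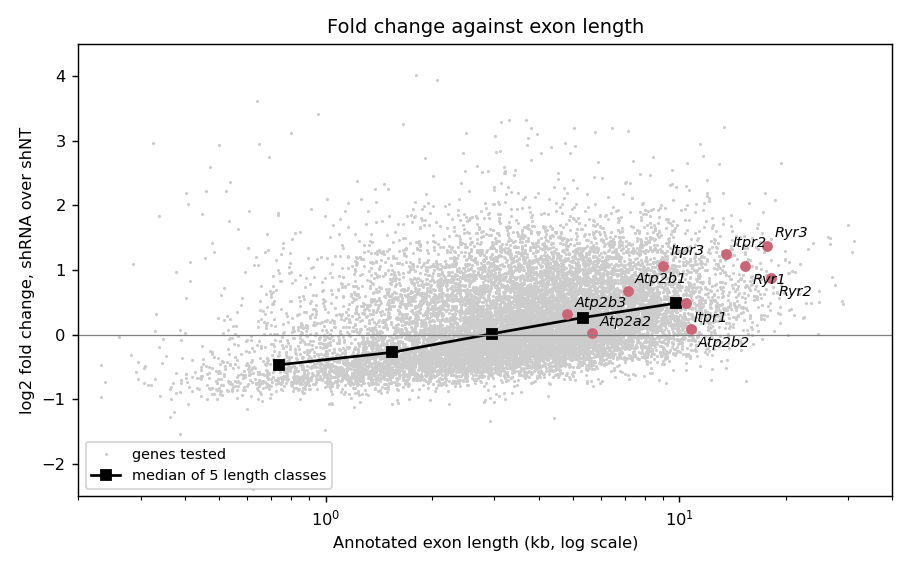
Log2 fold change, shRNA over shNT, against annotated exon length (kb, log axis) for all genes tested (grey) and the 10 calcium genes (red), with black squares at the median of 5 length classes. The class medians climb from -0.47 to 0.49, and the 3 ryanodine receptors, Itpr2, Itpr3 and Atp2b1 lie above 0.49 while Atp2a2 and Atp2b2 lie near 0.

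Levels of cell type markers differed between libraries, and the summed ranges of the 2 groups did not overlap for CA3 and CA2 pyramidal neurons, granule cells, oligodendrocyte precursors, choroid plexus and striated muscle. Of single genes tested, 15.6% had groups that did not overlap. The choroid plexus sum was low, at 3.33 to 6.44 CPM in shNT and 7.21 to 10.8 CPM in shRNA. Its markers Aqp1 and Otx2 were below 1 CPM in all samples. Summed over 12 markers of PV INs, levels were between 5399 and 8752 CPM in shNT and between 3176 and 7663 CPM in shRNA, and 0 of 12 markers had a positive log2 fold change. Markers of CA3 and CA2 pyramidal neurons, which also use Ryr2, Ryr3, Itpr1 and the PMCA pumps, summed to between 800.0 and 1740 CPM in shNT and between 1798 and 2233 CPM in shRNA, with 8 of 10 positive, and the 7 granule cell markers to between 131 and 217 CPM and between 233 and 253 CPM. The 8 oligodendrocyte markers summed to between 775 and 2406 CPM in shNT and between 1470 and 3059 CPM in shRNA, the 5 markers of oligodendrocyte precursors to between 38.3 and 68.1 CPM and between 76.8 and 111 CPM (5 of 5 positive, 3 called higher), and the 7 endothelial markers were at 743 CPM in shRNA replicate 4 against at most 279 CPM elsewhere. The part of these cells in the levels of the 10 genes was not tested.

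To place the set within its pathway, 103 other genes of calcium release and removal in 9 lists were examined, of which 98 were tested. Their median log2 fold change was 0.13, near the 0.11 of all genes, with 56 of 98 positive and a median exon length of 4.05 kb. At an unadjusted p below 0.05, 24 were higher and 10 lower, where 20.7% of all genes tested were higher and 13.4% lower. The quasi-likelihood test called 2 of 98 higher, Plce1 and Slc24a4, and none lower, against 1.74% higher and 0.0133% lower over all genes.

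Slc24a4, a potassium-dependent sodium-calcium exchanger of the plasma membrane, was at 3.48, 3.53, 4.36, 2.88 and 2.54 CPM in shNT and at 9.54, 6.40, 8.39 and 14.03 CPM in shRNA. The groups did not overlap, and the log2 fold change was 1.51 ± 0.26 (SE) with an edgeR adjusted p of 0.0403. Plce1, a phospholipase C that makes IP3, was at 6.44, 3.72, 2.44, 2.72 and 3.23 CPM in shNT and at 8.04, 9.03, 8.76 and 22.4 CPM in shRNA. The lowest shRNA sample again exceeded the highest shNT sample, with a log2 fold change of 1.70 ± 0.37 (SE) and an edgeR adjusted p of 0.0481. Neither call held without shNT replicate 3, 4 or 5 or without shRNA replicate 1 or 3, where 0 of these pathway genes were called, while 1 was called without shRNA replicate 4 and 9 without shNT replicate 1.

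By role, the sodium-calcium exchangers had the highest median log2 fold change, 0.91, with 7 of 8 positive, 4 of them at an unadjusted p below 0.05. Over all genes tested, 20.7% passed that mark in the higher direction. Slc24a3, the exchanger with the highest RPKM, was at 142 ± 38.2 CPM (SD, n = 5) in shNT and 162 ± 36.3 CPM (SD, n = 4) in shRNA. Its log2 fold change was 0.19. That of Slc24a2 was -0.13, at 379 CPM in shNT, and that of Slc8a3 was 0.02, at 26.4 CPM. Slc8a1, Slc8a2, Slc24a4, Slc24a5 and Slc24a6 had log2 fold changes from 0.80 to 1.51, at shNT means of only 0.339 to 7.22 CPM. Other calcium pumps and pump partners had a median of 0.42 with 6 of 8 positive. Their most abundant gene, Bsg, which encodes the pump partner basigin, was at 1141 ± 195 CPM in shNT and 952 ± 317 CPM in shRNA.

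Genes of IP3 production and removal had a median of 0.25, with 17 of 22 positive. At an unadjusted p below 0.05, 9 of the 22 were higher, where 20.7% of all genes tested were. Impa1, an inositol monophosphatase and the most abundant of these 22 genes, was at 196 ± 38.3 CPM in shNT and 139 ± 25.8 CPM in shRNA. Regulators of IP3 receptors had a median of 0.17 with 6 of 12 positive, and Grina was the most abundant at 748 ± 96.3 CPM and 614 ± 113 CPM. Regulators of ryanodine receptors had a median of 0.11 with 7 of 14 positive, led in abundance by Calm2, a calmodulin gene, at 2885 ± 607 CPM and 2023 ± 133 CPM.

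Endoplasmic reticulum calcium buffers lay mostly below 0, with a median of -0.21 and 1 of 10 positive, none at an unadjusted p below 0.05. Calr, the buffer calreticulin, was at 455 ± 126 CPM in shNT and 339.7 ± 99.1 CPM in shRNA. Mitochondrial uptake had a median of -0.10 (4 of 9 positive, with Vdac1, an outer membrane channel, at 1006 ± 140 CPM and 719.7 ± 235 CPM), and store-operated entry one of -0.02 (3 of 7 positive, with Tmem66, a brake on that entry, at 307 ± 42.2 CPM and 251 ± 13.2 CPM). Other endolysosomal and reticulum channels had a median of 0.18 with 5 of 8 positive, and Tmem38a, a potassium channel of the reticulum that balances charge during calcium release, was at 149 ± 22.7 CPM and 129.6 ± 28.5 CPM.

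Of the 98 pathway genes, 9 had every shRNA sample above every shNT sample, where 8.97% of all genes did.

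**Figure D5:**
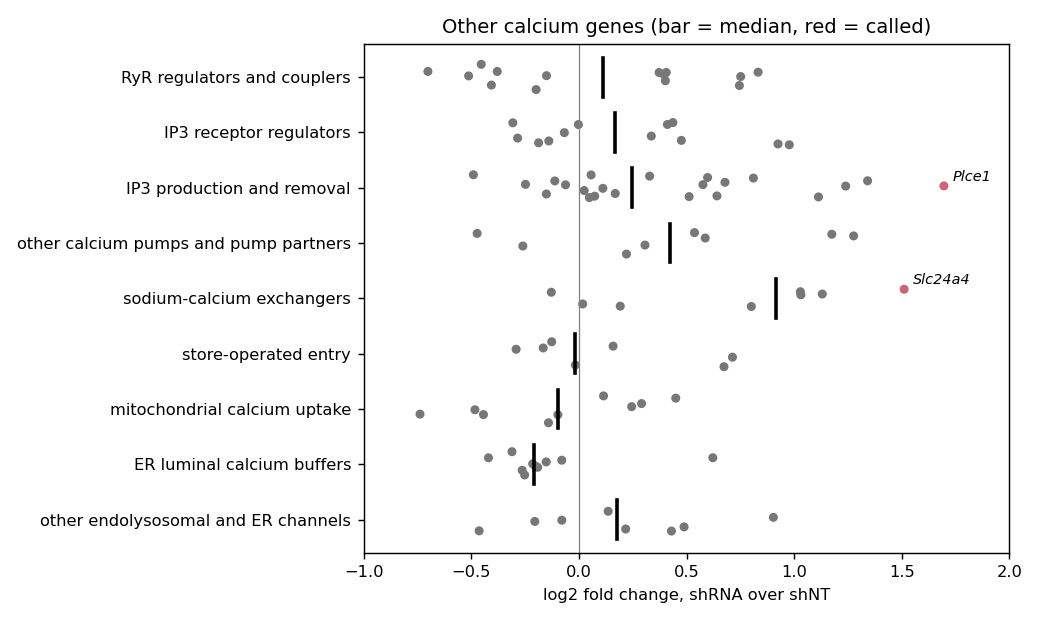
Log2 fold change, shRNA over shNT, of 98 other genes of calcium release and removal in 9 lists, with a bar at each list's median and the 2 called genes in red. The medians run from -0.21 in the luminal buffers to 0.91 in the sodium-calcium exchangers.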

How the data were processed

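Per the study's methods and the submitters' processing notes, the authors amplified immunoprecipitated RNA with a SMARTer kit, which does not mark strand, sequenced 50-base reads, aligned them with STAR to mm9 and counted reads per gene with HTSeq 0.6.0 without strand. The deposited values are raw counts per Ensembl gene, 1 file per sample. Rows that name no gene were left out of library sizes. The annotation behind the counts is not given in the sources used here; symbols, exon lengths and coordinates came from GENCODE vM1 on the mm9 assembly (37205 of 37620 identifiers matched).

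The members, gene lists and tests were chosen with earlier results of these data known. Genes at 1 CPM or more in at least 1 sample (15069 tested, 22551 removed) were fitted with edgeR 4.0.16 (R 4.3.3), TMM normalization and the quasi-likelihood test, with group as the only term, on all 9 samples. Adjusted p-values are Benjamini-Hochberg values over all genes tested, and a call needs an adjusted p below 0.05 and a 1.5-fold change. The biological coefficient of variation was 0.303. Standard errors were derived from the F statistic, and log2 levels used a prior count of 2. Exact two-sided permutation tests of mean log2 CPM over all 126 splits cannot give a p below 0.00794. RPKM divides CPM by the union of exons. Samples were mapped by the group and number in their titles. The mouse totals in the paper's figure legend give each pool its own mice. Whether the pools were injected and processed as independent cohorts is not stated. The p-values measure the spread between these pools, which may be technical in part.

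The named genes are the members, the gene with the highest RPKM in each pathway list, every pathway gene called, the gene most correlated with each member, and Ablim3 and Pvalb. Alternatives used DESeq2 1.42.0, limma 3.58.1 (voom with sample quality weights), other scalings and filters, covariates and omitted samples. The exon length trend was removed as an offset per sample from a lowess fit with a span of 0.3. The fitting script was tested on simulated data.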

Additional observations from a re-analysis of the deposited data

How the results depend on the processing

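No member was called under the quasi-likelihood test, whereas the likelihood ratio test and the edgeR exact test each called 4 (Ryr2, Ryr3, Itpr2 and Atp2b1), where they called 11.2% and 11.0% of all genes higher, DESeq2 called 3 of these (10.1% of all genes) and limma voom 5 (15.3%). Leaving out 1 sample gave 0 to 2 called members, with 1 without shNT replicate 1 (Itpr1) and 2 without shNT replicate 2 (Ryr2 and Ryr3). With shNT replicate 2 and shRNA replicate 4 both left out, a setting chosen after seeing the data, it was 2. Over 26 alternatives, 18 of 260 member log2 fold changes changed sign. For Atp2a2 these were -0.017 with RLE size factors and with DESeq2, -0.013 without a filter, -0.035 with a name stem term, -0.22 with the exon length trend removed, and down to -0.17 when shNT replicate 2, 4 or 5, or shRNA replicate 2 or 3, was dropped (0.17 at most without 1 sample, shRNA replicate 4). For Atp2b2 they were -0.36 with the exon length trend removed, and down to -0.12 when shNT replicate 2 or 5, or shRNA replicate 2 or 3, was dropped (0.21 at most without 1 sample, shRNA replicate 4). Itpr3 was at -0.18 in the YTa31 samples and -0.17 with reads outside exons as a covariate, and Ryr1 at -0.086 with that covariate. Ryr2, Ryr3, Itpr1, Itpr2, Atp2b1 and Atp2b3 were positive under all 26. The 26 include the quasi-likelihood fit called without a fold minimum, which could change no sign. The likelihood ratio and exact tests gave nearly the same log2 fold changes as that fit, 0.88 for Ryr2 in each. The causes of the differences between settings were not tested.

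Over all genes, 262 were called higher and 2 lower. The higher count was 0 with upper quartile scaling, library size only, YTa31 samples only, the outside-exon covariate, the exon length trend removed, or the 3 samples with most reads outside exons left out (a setting chosen after seeing the data), and the lower count was 0 in these too. It was 501 higher and 14 lower without a filter, 1688 and 542 by likelihood ratio test, 1659 and 534 by edgeR exact test, 1519 and 844 by DESeq2, 2301 and 618 by limma voom, and 678 higher with shNT replicate 2 and shRNA replicate 4 left out. The lower count was also 1 with RLE size factors, 8 with 1 CPM in 4 samples and 1 with a name stem term. Omitting 1 sample gave 0 to 1007 higher and 0 to 410 lower, with the most when shNT replicate 1 was dropped and 0 higher when shNT replicate 3, 4 or 5, or shRNA replicate 1 or 3, was. Of the pathway genes, 2 were called higher and 0 lower; the higher count was 1 with RLE size factors, 15 by likelihood ratio and exact tests, 13 by DESeq2, 18 by limma voom, 5 with both named samples left out, and 0 in the 6 settings named above with 0 higher calls. The likelihood ratio test, the exact test, DESeq2 and limma voom each called 2 lower. Omitting 1 sample gave 0 to 9 higher and 0 to 2 lower. With RPKM from the longest transcript, Atp2b2 was at 71.2 in shNT and 75.8 in shRNA, on average above Atp2b1 in both groups.

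Samples with the same replicate number did not deviate together (r from -0.64 to 0.49 in 4 pairs, 1 of 4 best with its own number). A replicate block gave 29 genes higher and 0 lower, 0 pathway genes and 0 members called, with all 10 members positive at a median of 0.63. With 15 to 134 reads, Itpr3 is limited by depth.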
